A study of Mus musculus with 2 samples.

Results

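The enzymes, transporters and regulators of glycolysis, pyruvate entry and the citrate cycle were read in mouse embryonic stem cells as 46 listed genes, all found among the 47643 gene IDs counted. They were matched by symbol and sorted into 24 steps, of which 11 are served by alternative genes (isoforms), 4 by the subunits of a complex and 9 by a single listed gene. The cells were of the E14 line, derived from 129/Ola blastocysts, and carry the label of a double knockout of Ago1 and Ago2, the genes of Argonaute proteins that microRNAs guide to their targets. Culture was on 0.2% gelatine with 15% serum and LIF at 100 U/mL, the cytokine under which such cells self-renew. PolyA RNA gave 2 libraries, both of this 1 genotype and named replicate 1 and replicate 2 as in the labels, with 34798975 and 29789560 gene counts. No unmodified cells were analysed here, and no effect of the knockout is measured by these values. Whether separate clones or cultures gave the libraries is not in the labels, so SDs over them (n = 2) and every test between them measure the spread of these samples, which may be technical.

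Glycolysis splits glucose into pyruvate in the cytosol. Its early enzymes spend ATP, and the enzymes from glyceraldehyde phosphate dehydrogenase onward give ATP and NADH back. Lactate dehydrogenase turns pyruvate into lactate and restores NAD, while the pyruvate dehydrogenase complex carries pyruvate into the mitochondrial citrate cycle. Many steps have several genes whose enzymes differ in regulation and tissue, and pluripotent stem cells are known for a high rate of glycolysis.

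Levels are given in TPM, counts divided by the summed length of a gene's exons and scaled to the same sum in each library, so that genes of unequal length can be set side by side. CPM, a count scaled to the library total alone, decided whether a gene counted as expressed, at 1 CPM in both libraries. A floor of 3 counts equals 0.0862 CPM in replicate 1 and 0.101 CPM in replicate 2, and such floors and the SEs of single genes hold counting error alone. The markers of embryonic stem cells were present, with all 6 listed genes expressed and Pou5f1, which encodes Oct4, at 1687 ± 85.6 TPM. The 6 fibroblast markers, which feeder cells would bring, summed to 2.89 TPM in replicate 1 and 2.89 TPM in replicate 2. Of these 6, 2 were expressed, and Col3a1 and Lum were at 0. The 6 markers of extraembryonic endoderm summed to 4.50 and 3.26 TPM, with 1 of the 6 expressed and Afp and Ttr at 0. In RNA of a whole culture, fewer cells of a kind and less RNA per cell cannot be told apart. Reads were assigned to both targeted genes, with Ago1 at 70.8 and 141 CPM and Ago2 at 124 and 129 CPM, and whole-gene counts cannot check an edited exon.

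Of the 46 genes, 44 were expressed, against 29.6% of all gene IDs and 58.0% of the 21620 protein-coding genes. The exceptions were Hk3, the hexokinase of blood cells, with 2 counts in each library, and Pklr, the pyruvate kinase of liver and red cells, with 28 and 21 counts. The list took 2.21% of all counts in replicate 1 and 2.00% in replicate 2. Of its members, 5 (Gapdh, Pkm, Aldoa, Eno1 and Ldha) stood among the 100 protein-coding genes with the highest TPM, and 15 stood among the highest 500. The glycolysis genes summed to 13060.2 and 11533 TPM in replicates 1 and 2, and the citrate cycle genes to 1842 and 1729 TPM. The first sum was thus 6.88 ± 0.297 times the second, or 6.85 ± 0.309 times when lengths of the longest transcript were used. The genes of pyruvate entry summed to 542 and 588 TPM.

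The 8 steps from aldolase to lactate dehydrogenase were the highest of the 24 in each library and with either length. Glyceraldehyde phosphate dehydrogenase led at 2414 ± 178 TPM (SD, n = 2), followed by pyruvate kinase at 1682 ± 148 TPM and aldolase at 1530.0 ± 210.2 TPM. Lactate dehydrogenase stood at 1441 ± 173 TPM and enolase at 1312 ± 95.5 TPM, and these 5 steps stood in the same order in both libraries, each lower in replicate 2. The enolase sum holds listed genes only and leaves out Eno1b, a near-copy of Eno1 described below. With annotated copies added to the sum, Eno1 took 48.3% of the step in replicate 1 and 49.3% in replicate 2. The place of enolase in this order is therefore uncertain. The order of phosphoglycerate mutase (991 ± 4.28 TPM) and phosphoglycerate kinase (953 ± 105 TPM) turned between the libraries. Triose phosphate isomerase was the lowest of these 8 at 605 ± 87.5 TPM. With the length of the longest transcript the order at the top was pyruvate kinase (2721 TPM), enolase (2678 TPM) and then glyceraldehyde phosphate dehydrogenase (2387 TPM), so the rank of single steps within this group depends on the length chosen.

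**Figure D1:**
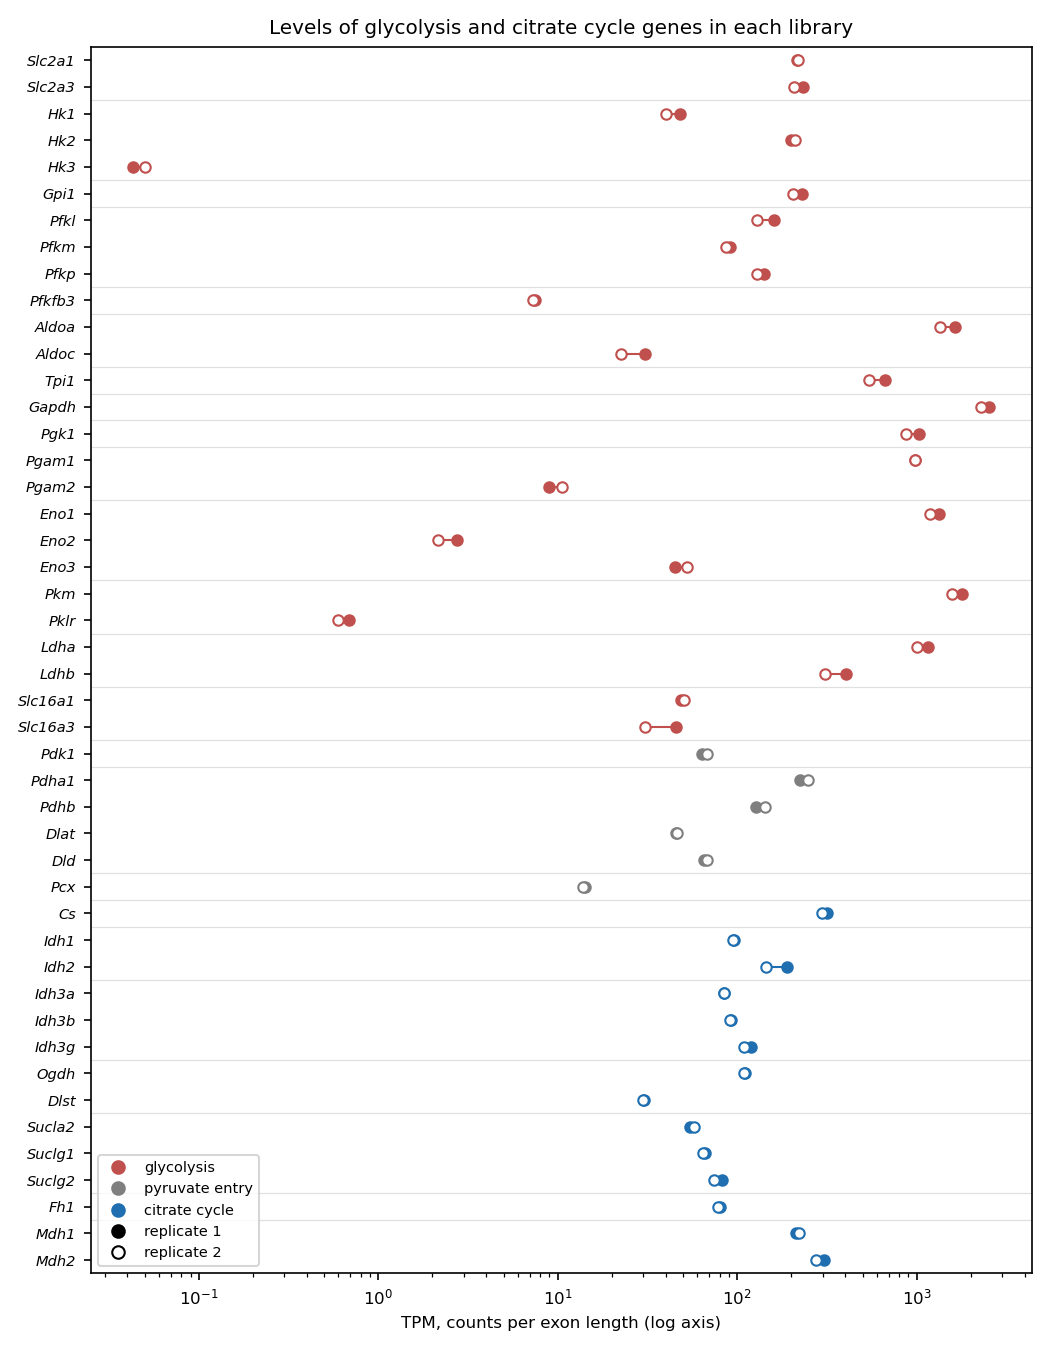
Each row is a gene and the x axis is its TPM on a log scale, with filled points for replicate 1, open points for replicate 2 and colours for glycolysis, pyruvate entry and citrate cycle. Gapdh, Pkm, Aldoa, Eno1 and Ldha lie above 1000 TPM in both libraries, and Hk3 lies at 0.0431 and 0.0502 TPM.

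Glucose enters through facilitative transporters, and both listed genes were expressed at like levels. Slc2a1 (ENSMUSG00000028645; GRCm38 chromosome 4, 119108711 to 119137983, plus strand), which encodes the widely expressed transporter GLUT1, stood at 217 TPM in replicate 1 and 219 TPM in replicate 2. For Slc2a3 (ENSMUSG00000003153; GRCm38 chromosome 6, 122727809 to 122801640, minus strand), which encodes the high-affinity transporter GLUT3 of neurons and early embryos, the level was 233 TPM in replicate 1 and 207 TPM in replicate 2. The order of the pair thus turned between the libraries, and neither gene led beyond the spread. In counts Slc2a3 took 68.9 and 66.1% of the pair, and its exons sum to 7245 bases, against 3506 bases for Slc2a1.

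Hexokinase traps glucose in the cell as glucose 6-phosphate, and Hk2 was its main transcript. Hk2 (ENSMUSG00000000628; GRCm38 chromosome 6, 82725025 to 82774454, minus strand), the inducible isoform of growing cells, stood at 199 TPM in replicate 1 and 209 TPM in replicate 2. Hk1 (ENSMUSG00000037012; GRCm38 chromosome 10, 62268855 to 62379908, minus strand), the isoform that most tissues use, stood at 48.1 TPM in replicate 1 and 40.0 TPM in replicate 2. Hk2 therefore took 80.5% in replicate 1 and 83.9% in replicate 2 of the step per exon length. With lengths of the longest transcript its share was 69.2 and 73.9%, below the 80% that was set for a clear lead. The exons of Hk1 sum to 8532 bases while its longest transcript has 4278 bases. Hk3 had 2 counts in each library, under the floor. Exons of several members overlap those of other genes, among them Pdha1 with Map3k15 and Pklr with Hcn3 on the opposite strand, and the strand setting of the counting is not given in the sources used here. The single listed gene of the next step, Gpi1, which encodes glucose phosphate isomerase, stood at 231 TPM in replicate 1 and 204 TPM in replicate 2.

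Phosphofructokinase, the committing step of glycolysis, was shared among all 3 of its genes. Pfkl (ENSMUSG00000020277; GRCm38 chromosome 10, 77986947 to 78010083, minus strand), named for liver, stood at 161 TPM in replicate 1 and 129 TPM in replicate 2. Pfkp (ENSMUSG00000021196; GRCm38 chromosome 13, 6579768 to 6648777, minus strand), named for platelets, stood at 142 TPM in replicate 1 and 129 TPM in replicate 2. Pfkm (ENSMUSG00000033065; GRCm38 chromosome 15, 98092589 to 98132451, plus strand), the muscle isoform, was lower at 91.0 TPM in replicate 1 and 86.9 TPM in replicate 2. Pfkl exceeded Pfkp by 1.13 and 1.01 times in replicates 1 and 2, so the first 2 isoforms were at nearly one level in replicate 2 per exon length. With lengths of the longest transcript Pfkl stood at 226 and 183 TPM and Pfkp at 172 and 156 TPM, a wider lead in both libraries. In counts Pfkp took 58.0 and 59.9% of the step, with exons of 13401 bases in sum. Pfkfb3, which encodes a kinase that makes fructose 2,6-bisphosphate, an activator of phosphofructokinase, was far lower at 7.49 TPM in replicate 1 and 7.24 TPM in replicate 2. The other 3 genes of that family, Pfkfb1 (7.68 ± 0.0696 TPM), Pfkfb2 (5.77 ± 0.190 TPM) and Pfkfb4 (3.06 ± 0.368 TPM), were at the same order of level.

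From aldolase to pyruvate kinase 1 of the listed genes took nearly all of each step that has several. Aldoa (ENSMUSG00000030695; GRCm38 chromosome 7, 126795234 to 126800751, minus strand), the aldolase of muscle and most tissues, stood at 1648 TPM in replicate 1 and 1359 TPM in replicate 2 and took 98.2% in replicate 1 and 98.4% in replicate 2 of the step. Aldoc, the isoform of brain, had 30.6 TPM in replicate 1 and 22.5 TPM in replicate 2. Pgam1 (ENSMUSG00000011752; GRCm38 chromosome 19, 41911923 to 41918660, plus strand), the widely expressed phosphoglycerate mutase, stood at 985 TPM in replicate 1 and 978 TPM in replicate 2, or 99.1% in replicate 1 and 98.9% in replicate 2. Its muscle counterpart Pgam2 had 8.98 TPM in replicate 1 and 10.6 TPM in replicate 2. Among enolases, Eno1 (ENSMUSG00000063524; GRCm38 chromosome 4, 150236721 to 150248879, plus strand) stood at 1332 TPM in replicate 1 and 1189.8 TPM in replicate 2 and took 96.5% in replicate 1 and 95.6% in replicate 2. Eno3, the muscle enolase, followed at 44.9 TPM in replicate 1 and 52.4 TPM in replicate 2, and Eno2, the neuronal one, had 2.73 TPM in replicate 1 and 2.16 TPM in replicate 2. Eno3 was thus above Eno2 in both libraries, although each was a small part of the step. Pkm (ENSMUSG00000032294; GRCm38 chromosome 9, 59656368 to 59679375, plus strand), whose splice forms M1 and M2 cannot be told apart in counts per gene, stood at 1787 TPM in replicate 1 and 1577 TPM in replicate 2. Pklr, with 0.687 TPM in replicate 1 and 0.599 TPM in replicate 2, left Pkm 2599.7 and 2631 times higher in replicates 1 and 2.

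The 3 single-gene steps in this stretch were among the most abundant transcripts of the cells. Tpi1 (ENSMUSG00000023456; GRCm38 chromosome 6, 124810586 to 124814296, minus strand), which encodes triose phosphate isomerase, stood at 666 TPM in replicate 1 and 543 TPM in replicate 2. Gapdh (ENSMUSG00000057666; GRCm38 chromosome 6, 125161715 to 125166467, minus strand) stood at 2540.4 TPM in replicate 1 and 2288 TPM in replicate 2 and ranked 30 among protein-coding genes. Pgk1 (ENSMUSG00000062070; GRCm38 chromosome X, 106187100 to 106203699, plus strand), which encodes the first ATP-yielding enzyme of the pathway, stood at 1028 TPM in replicate 1 and 879 TPM in replicate 2. Several of these genes have near-copies in the genome, so that reads may be split between them. For 28 genes annotated as processed pseudogenes at least 50% of their 50-base stretches recur in Gapdh, and these genes together held 2172 and 1746 counts, or 1.64% and 1.71% of the Gapdh count. Gm5559 was the highest of them with 511 and 433 counts. For Pgam1 the copy was Pgam1-ps2 (299 and 292 counts), and for Pgk1 the higher of 2 copies was Pgk1-rs7 (341 and 250 counts). Of the 50-base stretches of Pgk1, 53.9% recur in other genes, beside 36.2% for Pgam1, 26.0% for Eno1, 25.8% for Pkm and 25.1% for Gapdh. How reads that match several genes were counted is not given, so copy counts do not bound what these members may have lost. Enolase was the step where copies weighed most, since Eno1b, a gene annotated as protein-coding on chromosome 18, held 31058 and 22732 counts, and with a second copy the sum came to 35.5% and 33.8% of the Eno1 count. Of the Eno1b sequence, 76.4% recurs in Eno1, so the Eno1 level is uncertain. With these copies counted as genes of their own, an alternative added after the data were seen, Eno1 took 48.3% and 49.3% of the step per exon length. The exons of Eno1 sum to 5379 bases while its longest transcript has 2027 bases, and this share was not computed with other lengths. In counts Eno1 had 90185 in replicate 1 and 69299 in replicate 2, well above Eno1b.

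**Figure D2:**
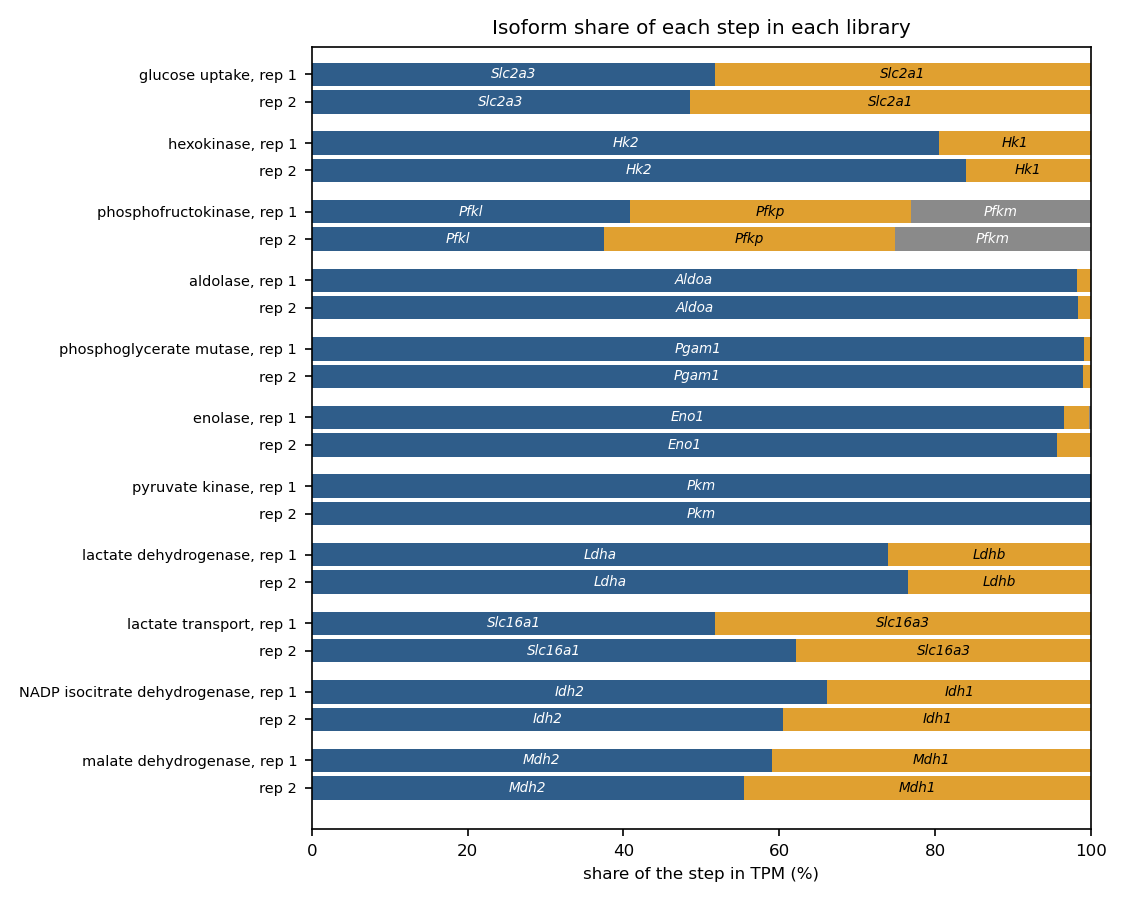
Bars give the share of each gene in the summed TPM of its step, in percent, for the 11 steps with isoforms, with replicate 1 above replicate 2 in each pair. Aldoa, Pgam1, Eno1 and Pkm fill over 95% of the listed genes' sum in both libraries, whereas Slc2a1 with Slc2a3, the 3 phosphofructokinase genes and Slc16a1 with Slc16a3 divide theirs.

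Both somatic genes of lactate dehydrogenase were expressed, with Ldha ahead. Ldha (ENSMUSG00000063229; GRCm38 chromosome 7, 46841475 to 46855627, plus strand), whose subunit predominates in glycolytic tissues, stood at 1156 TPM in replicate 1 and 1009.8 TPM in replicate 2. Ldhb (ENSMUSG00000030246; GRCm38 chromosome 6, 142490249 to 142507957, minus strand), whose subunit predominates in heart, stood at 407 TPM in replicate 1 and 309 TPM in replicate 2. Ldha was 2.84 and 3.27 times as high as Ldhb in replicates 1 and 2 and took 74.0% in replicate 1 and 76.6% in replicate 2 of the step. Its share was 81.1 and 83.2% with lengths of the longest transcript. The testis gene Ldhc, which is not on the list, had 3.07 TPM in replicate 1 and 1.87 TPM in replicate 2.

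Lactate leaves and enters cells through monocarboxylate carriers. Slc16a1 (ENSMUSG00000032902; GRCm38 chromosome 3, 104638668 to 104658462, plus strand), which encodes MCT1, stood at 48.9 TPM in replicate 1 and 50.6 TPM in replicate 2. For Slc16a3 (ENSMUSG00000025161; GRCm38 chromosome 11, 120948480 to 120960868, plus strand), which encodes MCT4, the exporter of strongly glycolytic cells, the level was 45.5 TPM in replicate 1 and 30.8 TPM in replicate 2. The pair was nearly even in replicate 1, where Slc16a1 took 51.8%, and leaned to Slc16a1 in replicate 2, at 62.2%. With lengths of the longest transcript Slc16a1 took 46.7 and 57.3%, so the leader of replicate 1 depends on the length. Another carrier gene, Slc16a7, which is not on the list, had 1 and 4 counts.

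The promoters of Ldha, Ldhb, Slc16a3 and Pgk1 are shown because these 4 genes were higher in replicate 1 in the exact binomial test and belong to the stretch that makes and exports lactate or yields ATP. They were chosen after their values were seen. Each sequence runs 5′ to 3′ on the strand of the gene from 250 bases before to 50 after the first start listed by RefSeq (build GRCm38.p6). Capitals mark ACGTG and GCGTG on either strand, the core letters of the hypoxia response element that HIF-1 binds. ACGTG also lies within CACGTG, the E-box that Myc and related factors bind. Pkm meets the same description and is not shown, and its first listed window held 0 ACGTG and 0 GCGTG. The first windows of Aldoa, Tpi1, Gpi1 and Hk1, also higher in replicate 1, held neither. Those of Aldoc, Pfkl, Eno1, Gapdh and Pfkp, higher as well, held at least 1 of them. Second windows listed for Pkm, Aldoa and Hk1 did hold ACGTG.
Ldha (chr7:46845554-46845853, plus strand): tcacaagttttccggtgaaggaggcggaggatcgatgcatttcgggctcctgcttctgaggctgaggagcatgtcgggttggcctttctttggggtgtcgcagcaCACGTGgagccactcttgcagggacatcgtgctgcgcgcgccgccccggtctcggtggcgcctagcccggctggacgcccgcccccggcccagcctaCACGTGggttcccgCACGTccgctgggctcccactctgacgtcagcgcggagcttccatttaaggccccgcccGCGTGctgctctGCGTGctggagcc
Ldhb (chr6:142507908-142508207, minus strand): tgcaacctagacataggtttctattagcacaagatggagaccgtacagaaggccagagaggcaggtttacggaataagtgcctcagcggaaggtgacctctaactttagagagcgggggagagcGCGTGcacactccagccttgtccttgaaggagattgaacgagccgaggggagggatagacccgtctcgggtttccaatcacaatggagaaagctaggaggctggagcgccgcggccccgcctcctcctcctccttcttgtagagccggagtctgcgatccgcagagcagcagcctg
Slc16a3 (chr11:120948817-120949116, plus strand): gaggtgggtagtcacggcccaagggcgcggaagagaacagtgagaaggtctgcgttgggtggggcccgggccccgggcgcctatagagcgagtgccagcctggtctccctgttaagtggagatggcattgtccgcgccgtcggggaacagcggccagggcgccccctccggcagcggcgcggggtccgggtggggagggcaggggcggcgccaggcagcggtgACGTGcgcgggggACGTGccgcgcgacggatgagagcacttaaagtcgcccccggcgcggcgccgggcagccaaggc
Pgk1 (chrX:106186850-106187149, plus strand): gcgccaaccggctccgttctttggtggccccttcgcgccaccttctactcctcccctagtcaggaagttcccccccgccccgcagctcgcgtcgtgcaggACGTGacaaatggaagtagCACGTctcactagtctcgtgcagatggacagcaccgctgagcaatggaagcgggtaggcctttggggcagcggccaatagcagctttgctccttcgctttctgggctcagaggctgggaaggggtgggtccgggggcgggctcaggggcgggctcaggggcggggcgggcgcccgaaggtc
Capitals form 5 runs in the Ldha window, 1 in Ldhb, 2 in Slc16a3 and 2 in Pgk1. The Ldha window shown does not end in an annotated GENCODE transcript, and the second window listed for Ldha, which does, held 0 ACGTG and 2 GCGTG.

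Promoters of this table were matched by symbol for 44 of the 46 genes, all but Slc2a3 and Idh3a. In the first listed window, ACGTG on either strand was present for 12 of 25 glycolysis genes and 3 of 13 citrate cycle genes, against 19.7% of the 27025 genes with a promoter. GCGTG was present for 11 of 25 and 7 of 13, against 32.5%. The E-box CACGTG, which overlaps ACGTG, was present for 3 of 25 glycolysis genes and 0 of 13 citrate cycle genes, against 7.24%, and TATAAA for 2 of 25 and 0 of 13, against 14.2%. These windows had a median GC content of 57.3% for glycolysis genes and 60.3% for citrate cycle genes, against 52.7% for all genes, and the part of base composition in these shares was not tested. A match of letters is a description and not a binding site.

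Pyruvate enters mitochondrial metabolism through the pyruvate dehydrogenase complex, whose genes stood at unequal levels. Pdha1 (ENSMUSG00000031299; GRCm38 chromosome X, 160122209 to 160138413, minus strand) and Pdhb, which encode the alpha and beta subunits of its decarboxylase E1, led the complex. Pdha1 had 225 TPM in replicate 1 and 249 TPM in replicate 2. Pdhb had 127 TPM in replicate 1 and 143 TPM in replicate 2. Dlat, which encodes the acetyltransferase E2 at the core, was lower at 45.6 TPM in replicate 1 and 46.4 TPM in replicate 2. Dld, the E3 subunit shared with the oxoglutarate dehydrogenase complex, stood at 65.7 TPM in replicate 1 and 67.8 TPM in replicate 2. Pdha1 exceeded Pdhb by 1.76 and 1.74 times and Dlat by 4.93 and 5.36 times in replicates 1 and 2. Pdk1, a kinase that inhibits the complex, stood at 63.8 TPM in replicate 1 and 67.8 TPM in replicate 2, above its relatives Pdk3 (49.9 ± 4.86 TPM), Pdk4 (10.7 ± 1.19 TPM) and Pdk2 (7.10 ± 1.33 TPM). Pcx, which encodes the pyruvate carboxylase that refills oxaloacetate, was low at 14.1 TPM in replicate 1 and 13.9 TPM in replicate 2.

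All 14 citrate cycle genes were expressed, within a narrower range than the glycolysis genes. Mdh2 and Cs were the most abundant. Cs (ENSMUSG00000005683; GRCm38 chromosome 10, 128337734 to 128362479, plus strand), which encodes citrate synthase, stood at 316 TPM in replicate 1 and 298 TPM in replicate 2. Mdh2, the mitochondrial malate dehydrogenase, had 306 TPM in replicate 1 and 274 TPM in replicate 2. Its cytosolic counterpart Mdh1 had 212 TPM in replicate 1 and 220.1 TPM in replicate 2, so that Mdh2 took 59.1% in replicate 1 and 55.5% in replicate 2 of the pair. With lengths of the longest transcript the share of Mdh2 was 72.6 and 69.5%, so its size depends on the length. The lowest member was Dlst, the E2 subunit of the oxoglutarate dehydrogenase complex, with 30.4 TPM in replicate 1 and 30.04 TPM in replicate 2, while Ogdh, its E1 subunit, stood at 111 TPM in replicate 1 and 109 TPM in replicate 2. Dlst has exons of 9559 bases in sum and a longest transcript of 3220 bases. Ogdh exceeded it by 3.65 and 3.62 times per exon length, and its share of the pair was 61.9 and 61.7% with the longest transcripts.

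Isocitrate dehydrogenase exists as an NAD-linked complex in the cycle and as NADP-linked enzymes beside it. The subunit genes of the NAD-linked complex, Idh3a (84.4 ± 0.440 TPM), Idh3b (92.1 ± 1.19 TPM) and Idh3g (115 ± 7.55 TPM), lay close together. Of the NADP-linked enzymes, mitochondrial Idh2 (ENSMUSG00000030541; GRCm38 chromosome 7, 80094846 to 80115392, minus strand) stood at 189 TPM in replicate 1 and 145 TPM in replicate 2. Cytosolic Idh1 had 96.5 TPM in replicate 1 and 94.5 TPM in replicate 2, which left Idh2 ahead by 1.96 and 1.53 times in replicates 1 and 2. Succinyl-CoA ligase pairs the shared subunit of Suclg1 (66.6 TPM in replicate 1 and 64.6 TPM in replicate 2) with an ATP-forming subunit from Sucla2 or a GTP-forming one from Suclg2. Suclg2 stood at 82.0 TPM in replicate 1 and 74.4 TPM in replicate 2. Sucla2 was lower in both libraries at 54.8 TPM in replicate 1 and 57.6 TPM in replicate 2, but with lengths of the longest transcript it took 30.5 and 32.9% of the complex and Suclg2 35.0 and 32.6%, so the order turned in replicate 2. Suclg2 has 1 annotated copy, Gm15163, with 27 and 27 counts. Fh1, which encodes fumarase, stood at 80.8 TPM in replicate 1 and 77.9 TPM in replicate 2.

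The isoform shares fell into steps with a clear leader and divided steps. In 5 of the 11 isoform steps 1 gene held at least 80% of the summed TPM in both libraries, namely Hk2, Aldoa, Pgam1, Eno1 and Pkm. It was 4 steps, without Eno1, when annotated copies were counted as genes of their own. The count was also 5 with lengths of the longest transcript and with no length, but then Ldha replaced Hk2. Shares of Idh2 (66.2% in replicate 1 and 60.5% in replicate 2) and Slc16a1 moved most between the libraries among the leading genes.

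**Figure D3:**
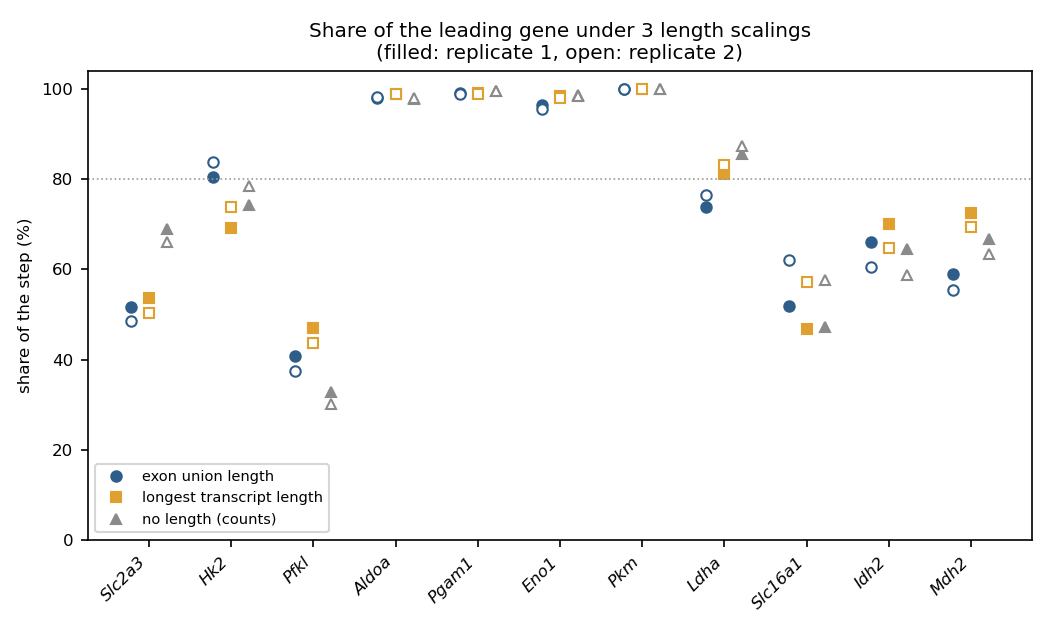
The y axis is the share of the leading gene in its step, in percent, for the 11 isoform steps, with colours and symbols for 3 ways of treating length, filled for replicate 1 and open for replicate 2. Aldoa, Pgam1, Eno1 and Pkm stay near the top under each, whereas Hk2 and Ldha cross the dotted line at 80% when the length changes.

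Replicate 1 was then set against replicate 2 to see which of these levels the libraries hold apart. Ratios are replicate 1 over replicate 2 on the log2 scale, so a positive one means higher in replicate 1. The two-sided exact binomial test weighs a gene's difference against counting error alone, compares these libraries and not conditions, and was adjusted by Benjamini-Hochberg over 19078 genes. It called 25 of the 45 members tested, 20 higher and 5 lower in replicate 1, against a background of 24.2% of all genes tested, 13.1% higher and 11.2% lower. Members have high counts, and of the 42 with at least 1000 counts in total 20 were higher and 5 lower, against 39.5% (19.0% higher and 20.5% lower) of the 8358 genes with as many counts, a threshold chosen after the data were seen. The median log2 ratio of the members was 0.06, against 0.01 over all genes tested. Hk3, with 4 counts in all, was not tested. In edgeR's exact test (Benjamini-Hochberg adjusted), which includes the spread of these libraries, 0 of the 45 members were called, against 0.456% of all genes (0.341% higher and 0.115% lower), and 7 had an unadjusted p under 0.05.

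The glycolysis genes made up most of the calls. Of 25 tested, 15 were higher in replicate 1, 2 were lower and 8 were not called, with a median log2 ratio of 0.18. Over all genes tested 13.1% were higher and 11.2% lower, and of those with at least 1000 counts 19.0% and 20.5%. The edgeR exact test called 0 of the 25. Slc16a3 had the largest ratio among the members called, 0.56 ± 0.04 (counting SE), where the exact binomial test gave an adjusted p of 3.21e-37 and the edgeR exact test one of 0.0686. Over the other settings of the binomial test its adjusted p ranged from 2.28e-37 to 2.73e-26. Aldoc (0.44), Ldhb (0.39), Pfkl (0.31), Tpi1 (0.29), Aldoa (0.27) and Hk1 (0.26) followed in log2 ratio. Pgk1 (0.22), Ldha (0.19), Pkm (0.18), Gpi1 (0.18), Slc2a3 (0.16), Eno1 (0.16), Gapdh (0.15) and Pfkp (0.14) were higher by smaller ratios. Hk2 (-0.08) and Eno3 (-0.23) were lower in replicate 1. Pgam1 (0.01, adjusted p = 0.805 in the exact binomial test) was not called.

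Pyruvate entry differed the other way in part. Pdha1 (-0.15), Pdhb (-0.17) and the kinase gene Pdk1 (-0.09) were lower in replicate 1, and Dlat, Dld and Pcx were not called. Of the 14 citrate cycle genes 5 were higher, 0 were lower and 9 were not called by the binomial test, against 24.2% called of all genes and 39.5% of those with at least 1000 counts. Those 5 were Idh2 (0.38), Mdh2 (0.15), Suclg2 (0.14), Idh3g (0.13) and Cs (0.08). For Idh2 the exact binomial test gave an adjusted p of 1.6e-36 and the edgeR exact test one of 0.436. Glycolysis transcripts had a median GC content of 53.5%, pyruvate entry transcripts 46.4% and citrate cycle transcripts 47.4%, and across all genes the ratio rose with GC content (Spearman rho 0.19 across 18978 genes). After removal of that trend 15 glycolysis genes were higher and 4 lower, with Slc2a1 and Pgam1 now among the lower ones, against a background of 10.6% of all genes higher and 10.4% lower, and the median log2 ratio was 0.13. Of the pyruvate entry genes 2 were then lower, since Pdk1 was no longer called (adjusted p = 0.0733 in the exact binomial test).

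**Figure D4:**
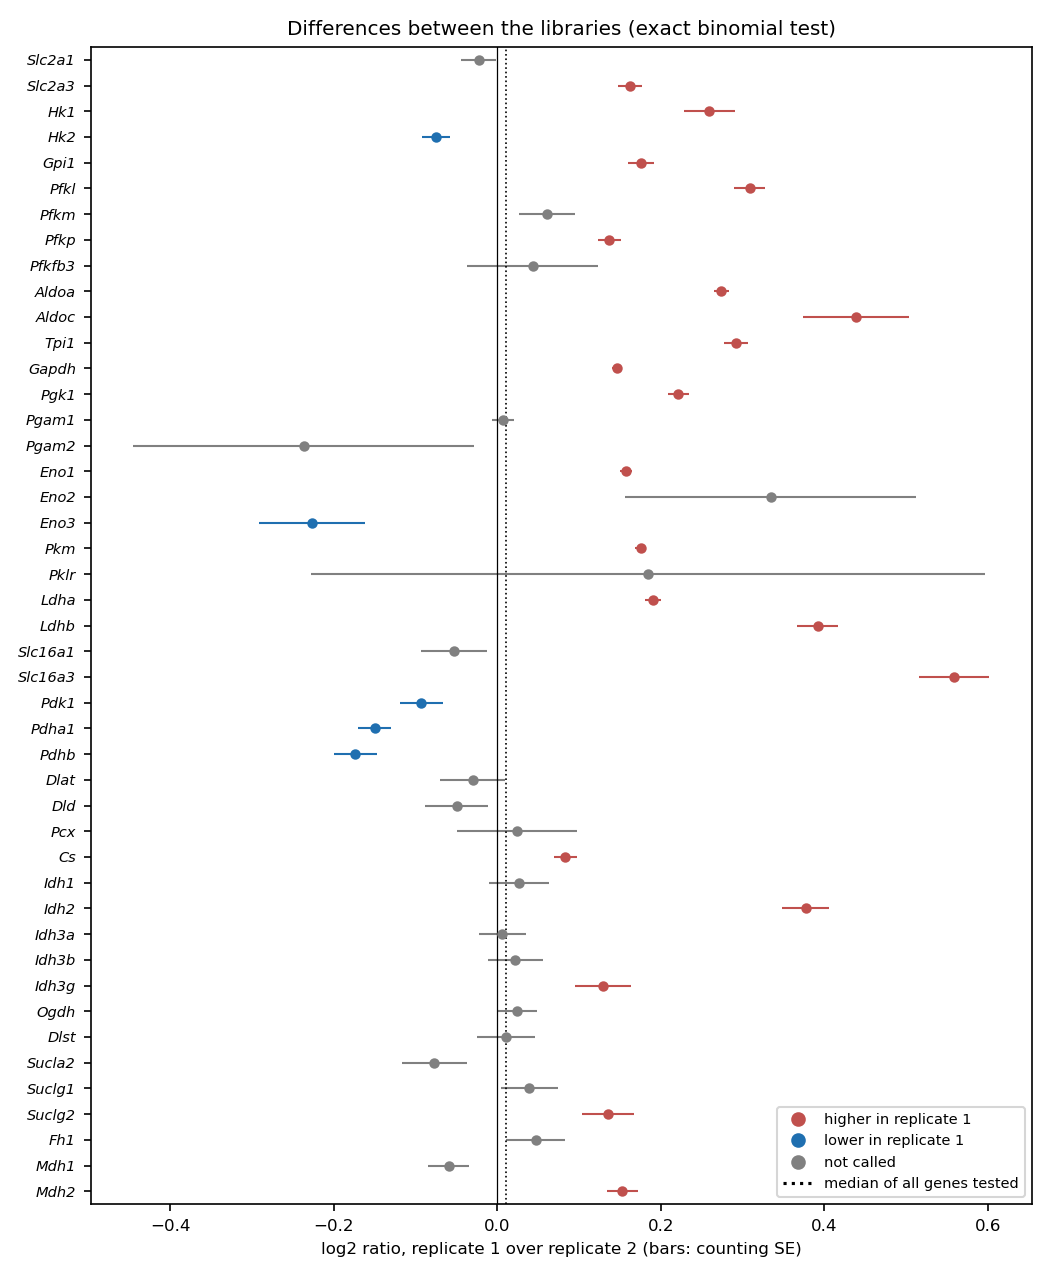
Each row is 1 of the 45 genes tested, the x axis is the log2 ratio of replicate 1 over replicate 2 and bars give the counting SE. Red points, higher in replicate 1, gather among the glycolysis genes in the upper part, with Slc16a3 the farthest at 0.56, and blue points mark Hk2, Eno3, Pdk1, Pdha1 and Pdhb.

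Genes around the pathway were read from companion lists. Of 17 other isoforms of the same steps 11 were expressed. Pdk3 (49.9 ± 4.86 TPM), Pdk4 (10.7 ± 1.19 TPM) and Pfkfb1 (7.68 ± 0.0696 TPM) were the highest. Per exon length Pfkfb1 stood slightly above the listed Pfkfb3 in both libraries. With lengths of the longest transcript Pfkfb1 had 9.10 TPM in replicate 1 and 9.01 TPM in replicate 2. Pfkfb3 then had 9.26 and 8.99 TPM, so the order depends on the length. The liver gene Slc2a2 and the testis gene Pgk2 had no count in either library. The 95% counting interval of such a gene reaches 0.106 CPM in replicate 1 and 0.124 CPM in replicate 2. By the binomial test 3 of 11 tested were higher and 1 lower in replicate 1, beside 13.1% higher and 11.2% lower over all genes, the background for each list that follows. Ldhc, Slc16a7, Pdk2, Pfkfb2 and Pfkfb4 of this list, given above, were named after their values were seen. All 12 other genes of the cycle and of pyruvate entry were expressed. The succinate dehydrogenase genes Sdhd (173 ± 3.78 TPM) and Sdha (149 ± 3.01 TPM) were among the highest. The phosphatase gene Pdp1 (5.81 ± 0.480 TPM) and the pyruvate carrier gene Mpc2 (3.59 ± 0.275 TPM) were the lowest, and 1 of 12 tested were higher and 0 lower in replicate 1.

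All 7 genes of the pentose phosphate pathway, which makes NADPH and ribose, were expressed. Taldo1 (289 ± 5.67 TPM), Tkt (172 ± 9.41 TPM) and G6pdx (157 ± 1.37 TPM) led them, and Pgls (20.1 ± 2.83 TPM) and Rpia (11.0 ± 1.02 TPM) were the lowest. Here 1 of 7 tested were higher and 1 lower in replicate 1. Gluconeogenesis, the reverse route of liver and kidney, was sparse, with 3 of 6 genes expressed. Pck2, the mitochondrial phosphoenolpyruvate carboxykinase, stood at 54.8 ± 7.57 TPM, G6pc3 at 9.47 ± 0.0772 TPM and Fbp1 at 5.14 ± 0.517 TPM, whereas Pck1 had 5 and 4 counts and G6pc none. Of this list 2 of 4 tested were higher and 0 lower in replicate 1.

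Among genes that feed the cycle or export citrate from it, 9 of 10 were expressed. Acly, which splits citrate into acetyl-CoA in the cytosol, led at 472 ± 79.0 TPM, ahead of Glud1 (260.0 ± 16.6 TPM) and Got1 (248 ± 14.5 TPM), and had a log2 ratio of 0.34, higher in replicate 1. The malic enzyme gene Me3 had no count. In this list 3 of 9 tested were higher and 3 lower in replicate 1. All 7 genes of the hypoxia factors and their sensors were expressed. Hif1a (56.4 ± 4.39 TPM), Egln3 (46.1 ± 8.96 TPM) and Arnt (44.5 ± 3.34 TPM) were the highest, and Vhl (19.6 ± 0.533 TPM) and Egln1 (13.7 ± 0.0536 TPM) the lowest. Egln3, a prolyl hydroxylase gene, was higher in replicate 1 (0.39), Hif1a was lower (-0.16), and in all 3 of 7 tested were higher and 1 lower in replicate 1. In edgeR's exact test 0 genes of these 6 lists were called.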

How the data were processed

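PolyA RNA of 2 libraries of 1 genotype was measured. Per the labels' protocols, RNA was taken up in Trizol and TruSeq libraries that keep the strand in reverse were made from 1 ug. The build mm10 (GRCm38) and the aligner STAR 2.4.2a were used per the submitters' processing notes, and how reads were counted, strand setting included, is not given in the sources used. The deposited files hold raw counts per Ensembl gene, and no row without a gene ID was used. Of 47643 IDs, 47224 were named with GENCODE M21. Depth was 34798975 and 29789560 counts, and 1 count equals 0.0287 and 0.0336 CPM.

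CPM and TPM were computed here, TPM from summed exon lengths. The libraries were compared gene by gene with a two-sided exact binomial test (SciPy 1.17.1) at TMM sizes (edgeR 4.0.16), adjusted by Benjamini-Hochberg over genes that had 10 or more counts in total. A quasi-likelihood test has no residual degrees of freedom with 2 libraries of 1 group, so edgeR's exact test, with its dispersion taken from both libraries as 1 group, was an alternative, as were DESeq2 1.42.0 size factors. Log2 ratios used a pseudocount of 0.5 counts. The scripts were tested on simulated data that held known changes and counting error alone. That test does not show how the calls behave where libraries differ by more than counting error. Annotated copies were genes sharing at least 50% of their 50-base stretches with a member. The text names all members, and from each companion list the 3 highest and the 2 lowest genes by mean TPM, except a few that are not reported here. The members and lists were chosen with earlier results of these data known. Promoter sequences came from the RefSeq table (GRCm38.p6).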

Additional observations from a re-analysis of the deposited data

How the results depend on the processing

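The count of members called between the libraries was 25 of 45 tested with DESeq2 size factors and with library totals. It was 25 of 46 with no count filter and 25 of 44 with at least 100 counts. It was 26 of 45 after removal of the GC trend. Without members of which over 20% of 50-base stretches recur elsewhere it was 20, but only 38 were then tested. The share called of all genes tested also moved with the setting. It was 16.17% with no count filter, 33.99% with at least 100 counts and 20.99% after removal of the GC trend. With edgeR's exact test 0 of 45 members were called, and 7 had an unadjusted p under 0.05. That test adds a spread estimated from the same 2 libraries. After removal of the GC trend Pgam1 changed direction (log2 ratio -0.042, adjusted p = 0.0129 in the exact binomial test), and Slc2a1 was called lower (-0.085); the cause was not tested. The median log2 ratio ranged from 0.04 to 0.08, and the mean was 0.10. Expressed members numbered 42 at 5 CPM and 45 at 0.5 CPM, and 44 with either library left out. Steps with a clear leading gene numbered 4 at a share of 90%, 6 at a share of 2 in 3, 4 with annotated copies counted apart (Eno1 then took 48.8% on average, an alternative added after the data were seen) and 5 with either library left out. The leading gene's share moved by more than the spread in 8 of 11 steps with the longest transcript and in 9 with no length. No paired analysis was possible because both libraries belong to 1 group. Genes with few counts, such as Hk3, cannot be told from 0 at this depth.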
